A study of Arabidopsis thaliana with 24 samples.

Results

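After far-red enrichment of the whole rosette, 41 Arabidopsis genes lay past set thresholds on opposite sides of their control level at the ends of the same leaf. The choice started from 16746 probe sets that stand for a single gene. In 19 of the 41 genes the transcript was lower in the leaf tip and higher in the petiole base, and in 22 the reverse held. They were chosen from group means of the log2 signal: whole far-red (FR) minus control had to be at least 0.7 in one tissue and at most -0.7 in the other. The highest of the 8 group means also had to be at least 4, which 7372 probe sets met. Past the same thresholds, 90 genes were higher in both tissues and 93 were lower in both. Of the 41 genes, 12 have a symbol of their own (ACT11, BZIP61, SWEET16, CSLA03 and SFP2 in the first direction, and GH3.3, LTI30, UGT72B3, FAMT, UF3GT, IQD22 and AGO7 in the second). The other 29 carry a locus name only, and no role is given for them here. All 41 code for proteins, and no pair of them are neighbours in the gene order.

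The 24 arrays fall into 8 groups of 3, each the leaf tip (top 2.5 mm of the lamina) or the petiole base (its lowest 1.5 mm). The leaf was the fifth-youngest of plants 28 d old. All plants had grown with 9 h of light and 15 h of dark at 20 °C, and all were treated for 5 h at a photosynthetic light of 140 µmol per square metre and second. Control plants stayed in white light with a red to far-red ratio of 2.3, and touch plants were touched in that same light, on a part of the plant that the labels do not name. Local FR lowered the ratio to 0.05 at the leaf tip, leaving the rest of the plant at 2.3, while whole FR lowered it to 0.05 over the whole rosette. The labels name neither the accession of the plants nor how many leaves went into 1 array. They call the 3 arrays of a group independent biological replicates, and they state that both ends were taken from 1 and the same leaf. Arrays carry no read depth, so their number, 3 per group, limits the precision. The 5th percentile of the signals was 0.81 to 0.97 across arrays and the 25th was 1.12 to 1.35, so a mean near those levels can understate a difference.

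Plants read a low ratio of red to far-red light, the light reflected by neighbouring leaves, through the photoreceptor phytochrome B, which far-red light turns inactive and which then no longer restrains the PIF transcription factors. In rosettes this leads to auxin synthesis in the lamina, auxin transport to the petiole, petiole elongation and upward leaf movement. A leaf tip perceives the signal while the petiole base carries out the movement. In bulk tissue, fewer cells of a type and less RNA per cell cannot be told apart.

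Since control and whole FR arrays chose the genes, their values are given as a description. Comparisons that share the control arrays (touch or local FR against control) are likewise given with no test. The tests below use local FR and touch arrays, which entered the choice only through the minimum level. LTI30 and AT2G44400 reached that level only through touch in the base (LTI30 also through local FR there). Their values in these arrays are therefore a description with no test, and counts of signs and calls that include them are also given without them. Local FR minus touch can come from either treatment. The 24 arrays were fitted together in limma over 17504 probe sets with a gene, with Benjamini-Hochberg adjustment over all of them, and a gene is called where its adjusted p was under 0.05.

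Among the 19 genes that were lower at the tip and higher at the base, whole FR minus control ran from -2.84 to -0.74 in the tip (median -1.01) and from 0.78 to 3.42 in the base (median 1.56). The change in the base was the larger one in 12 of 19. The whole FR arrays did not overlap the control arrays in either tissue in 19 of 19. Over all probe sets such a gap was found for 10.9% in the tip (whole FR lower) and 13.9% in the base (whole FR higher), but these are the arrays that chose the genes, so nothing is read from that count. Of the 19 genes, 12 stayed within the thresholds whichever single control or whole FR array was left out. Each removal on its own kept 16 to 19 of the 19. The genes just inside them were SFP2, CSLA03 and AT1G29660, with tip and base values of -0.74 and 0.85, -0.90 and 0.78, and -0.99 and 0.80. Just outside lay AT2G40570 at -0.69 and 0.71, AT4G37080 at -1.12 and 0.69 and AT2G34510 at -1.07 and 0.67.

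AT1G06360 had the widest change of the group. In the tip it stood at 4.37, 4.88 and 5.32 in control, 4.37, 4.60 and 4.91 under touch, 2.28, 2.84 and 3.62 under local FR and 1.91, 2.37 and 1.75 under whole FR. Every local FR and whole FR array lay below every control and touch array. In the base it stood at 6.54, 5.62 and 7.12 in control, 4.42, 3.92 and 4.45 under touch, 6.52, 6.82 and 7.24 under local FR and 8.21, 8.36 and 8.41 under whole FR, so that touch held the lowest arrays and whole FR the highest. Local FR minus touch was -1.71 in the tip (SE 0.33, limma adjusted p = 0.00728) and 2.60 in the base (SE 0.33, limma adjusted p = 6.3e-05). Touch lay 2.17 below control in the base.

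AT2G30930 read 5.63, 5.79 and 5.58 in control, 5.82, 6.09 and 5.86 under touch, 4.48, 4.12 and 4.30 under local FR and 4.17, 4.08 and 4.11 under whole FR in the tip. In the base it read 6.81, 7.16 and 6.53 in control, 6.67, 6.72 and 6.72 under touch, 7.90, 8.03 and 7.65 under local FR and 8.75, 8.74 and 9.04 under whole FR. Local FR and touch did not overlap at either end, while control and touch overlapped in the base. The gene fell by 1.62 in the tip (SE 0.15, limma adjusted p = 5.31e-07) and rose by 1.16 in the base (SE 0.15, limma adjusted p = 5.73e-05) under local FR relative to touch. AT1G50040, at 2.37, 2.09 and 2.97 in control, 3.52, 3.07 and 3.44 under touch, 1.58, 1.95 and 2.32 under local FR and 1.67, 1.62 and 1.49 under whole FR, was near the low end of the tip signals under far-red. It fell by 1.39 there (SE 0.22, adjusted p = 0.000819) and rose by 0.95 in the base (SE 0.22, adjusted p = 0.0144), both by limma, although touch in the tip lay above control. AT1G06360, AT2G30930 and AT1G50040 were the 3 genes of the direction called in both tissues. The share of all probe sets called in both was not counted, so nothing is read from that number.

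**Figure D1:**
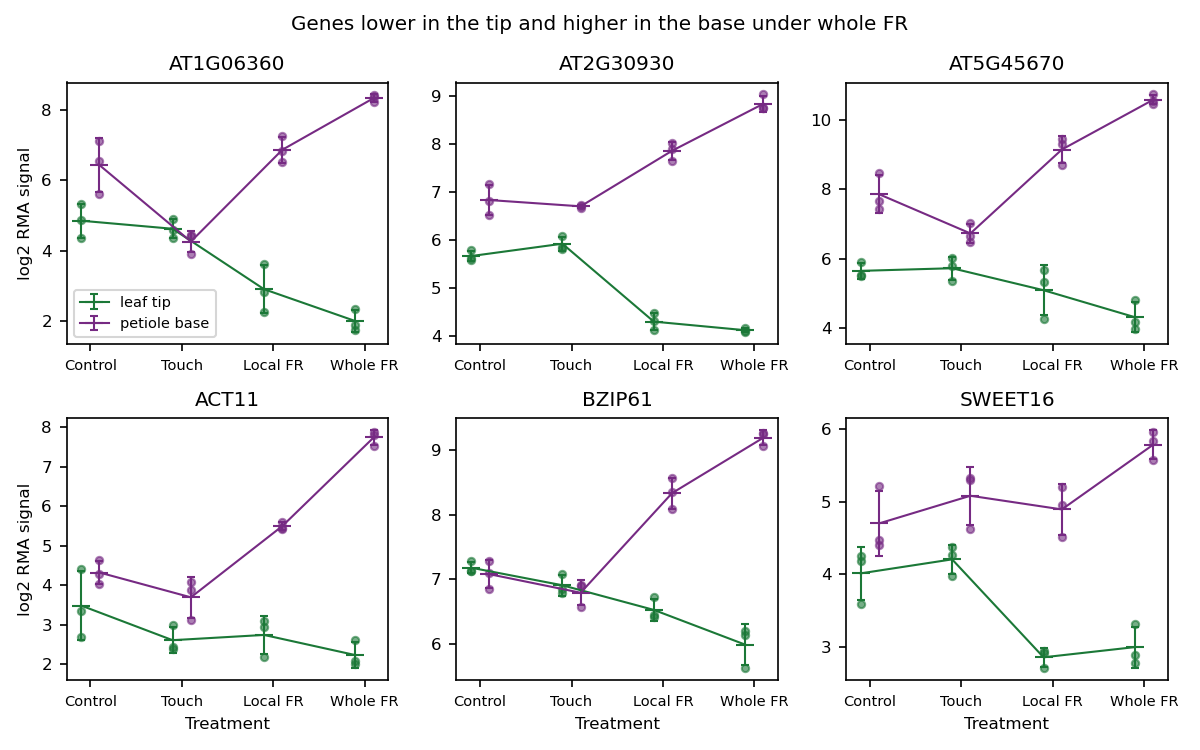
Log2 signal of 6 genes that whole FR left lower at the tip and higher at the base, by treatment (control, touch, local FR, whole FR), in leaf tip (green) and petiole base (purple); points are arrays and the lines join group means ± SD (n = 3). In all 6, the base lies above the tip under whole FR, while for AT1G06360 and BZIP61 the touch means of the ends lie within 0.36 and 0.12 of each other.

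ACT11, an actin of the cytoskeleton, had the largest whole FR change of the 19 in the base. Its base arrays were at 4.29, 4.04 and 4.64 in control, 3.12, 3.87 and 4.09 under touch, 5.61, 5.42 and 5.46 under local FR and 7.82, 7.88 and 7.54 under whole FR, with every whole FR array above every other. In the tip they were at 4.42, 2.69 and 3.35 in control, 3.00, 2.39 and 2.44 under touch, 3.08, 2.19 and 2.95 under local FR and 2.08, 2.01 and 2.61 under whole FR. It rose by 1.80 in the base under local FR relative to touch (SE 0.33, limma adjusted p = 0.00231), and in the tip the difference was 0.13 (SE 0.33, adjusted p = 0.96). BZIP61, a basic leucine zipper transcription factor, read 7.11, 7.29 and 6.86 in control, 6.91, 6.57 and 6.91 under touch, 8.09, 8.56 and 8.35 under local FR and 9.06, 9.25 and 9.26 under whole FR in the base. Under local FR relative to touch it rose there by 1.54 (SE 0.16, limma adjusted p = 7.93e-06), while in the tip the difference was -0.38 (SE 0.16, adjusted p = 0.397). AT5G45670 reached the highest levels of the direction, at 7.67, 7.44 and 8.48 in control, 6.50, 6.67 and 7.03 under touch, 8.70, 9.45 and 9.31 under local FR and 10.48, 10.55 and 10.74 under whole FR in the base. Local FR relative to touch was higher there by 2.42 (SE 0.31, limma adjusted p = 6.3e-05). Relative to control, touch stood at -1.13 and local FR at 1.29 in the base, with no test.

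SWEET16, which codes for a sugar carrier of the vacuole membrane, stood at 3.59, 4.26 and 4.19 in control, 4.26, 4.37 and 3.98 under touch, 2.71, 2.92 and 2.94 under local FR and 2.79, 2.90 and 3.32 under whole FR in the tip, with local FR and whole FR below control and touch. In the base it stood at 4.48, 5.21 and 4.41 in control, 5.30, 5.32 and 4.62 under touch, 4.52, 5.21 and 4.95 under local FR and 5.57, 5.83 and 5.96 under whole FR, where local FR and touch overlapped. It fell by 1.35 in the tip (SE 0.24, limma adjusted p = 0.00253), and the base difference was -0.19 (SE 0.24, adjusted p = 0.84). The difference between the tissues, -1.16, was not called (SE 0.33, limma adjusted p = 0.0964). SFP2, a monosaccharide transporter of the ERD6-like family, fell by 0.94 in the tip (SE 0.16, limma adjusted p = 0.00131) and differed by 0.01 in the base (SE 0.16, adjusted p = 0.996). CSLA03, a cellulose synthase-like gene of the mannan synthase family, had differences of -0.69 in the tip (SE 0.20, limma adjusted p = 0.0918) and 0.26 in the base (SE 0.20, adjusted p = 0.633).

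Across the 19 genes, local FR minus touch in the tip was negative in 17, with a median of -0.67, and 7 were called, all lower, against a background of 0.628% of all probe sets. AT5G44020 read 8.22, 8.62 and 8.55 in control, 8.09, 8.55 and 8.32 under touch, 7.19, 7.53 and 7.39 under local FR and 6.69, 7.04 and 6.51 under whole FR in the tip, with both far-red groups below both white-light groups. The called genes not yet given were AT5G16170 at -1.01 (SE 0.25, limma adjusted p = 0.0411) and AT5G44020 at -0.95 (SE 0.18, limma adjusted p = 0.00447). In the base 16 of 19 were positive, with a median of 0.71, and 9 were called, all higher, against 1.48%. AT1G22330 read 7.34, 7.85 and 7.58 in control, 6.92, 7.01 and 7.02 under touch, 8.33, 8.56 and 8.65 under local FR and 9.54, 9.58 and 9.79 under whole FR in the base, with the local FR and whole FR arrays above all others. Beside the genes above, AT1G22330 rose by 1.53 (SE 0.15, limma adjusted p = 1.88e-06), AT3G06070 by 1.04 (SE 0.23, limma adjusted p = 0.0128) and AT5G19190 by 0.74 (SE 0.21, limma adjusted p = 0.0483). Relative to control, AT1G22330 stood at -0.61 under touch and 0.93 under local FR in the base, with no test. The local FR arrays lay wholly below the touch arrays in the tip in 15 of 19, against 7.79% of all probe sets, and wholly above them in the base in 14, against 10.3%. In the tip, the call of AT1G06360 was lost without local FR replicate 1 (limma adjusted p = 0.0541), and that of AT5G16170 without any of 5 of the 6 tip arrays (up to 0.211). In the base, AT3G06070 lost its call without local FR replicate 2 or touch replicate 3 (up to 0.0869), AT1G50040 without local FR replicate 2 or touch replicate 1 or 2 (up to 0.0654) and AT5G19190 without any 1 of the 6 base arrays (up to 0.217).

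The difference between the tissues (local FR minus touch in the tip, minus the same in the base) was tested directly. The test treated the ends as independent, although both came from 1 leaf, since the labels do not say what a replicate number marks. With the number as a block more genes were called, as given below. The difference was negative in 19 of 19 genes, against 50.1% of all probe sets, from -4.31 to -0.28 with a median of -1.41. It was called in 11, all negative, against 0.714%. The largest were AT1G06360 at -4.31 (SE 0.47, limma adjusted p = 1.22e-05), AT5G45670 at -3.05 (SE 0.44, limma adjusted p = 0.000358) and AT2G30930 at -2.78 (SE 0.21, limma adjusted p = 3.85e-08). AT1G50040 stood at -2.35, AT1G22330 at -2.02 and BZIP61 at -1.92. AT4G37240, called in neither tissue alone, reached -1.51 (SE 0.35, limma adjusted p = 0.0305). ACT11, at -1.67 (SE 0.46, limma adjusted p = 0.0801), was not called. AT1G07135, AT1G11410, AT1G29660, AT5G44680 and CSLA03 passed none of the 3 tests. The calls of AT4G37240 and SFP2 were each lost without any 1 of 8 of the 12 arrays (limma adjusted p up to 0.109 and 0.0825).

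Among the 22 genes higher in the tip and lower in the base, whole FR minus control ran from 0.70 to 5.17 in the tip (median 0.90) and from -4.20 to -0.71 in the base (median -1.06). The base held the larger change in 11 of 22. The whole FR and control arrays did not overlap in the tip in 19 and in the base in 18, and 17 were free of overlap at both ends. Over all probe sets the shares were 10.5% (higher in the tip) and 12.0% (lower in the base), and these arrays too chose the genes. AT2G43620 and AT2G44400 overlapped in both tissues, AT3G47010 in the tip, and GH3.3 and FAMT in the base. Of the 22 genes, 6 stayed within the thresholds whichever single control or whole FR array was left out. Each removal on its own kept 17 to 22 of the 22. The genes just inside them were AT1G08230, AT2G22660 and AT5G53420, with tip and base values of 0.70 and -1.21, 0.77 and -0.71, and 0.92 and -0.73. Just outside lay AT4G21650 at 1.0 and -0.65, AT1G33170 at 0.84 and -0.65 and AT2G22080 at 1.16 and -0.64. AT1G06000 has a second probe set, whose whole FR minus control was -0.25 in the tip and -0.82 in the base and did not meet the thresholds, so its probe sets disagree in the tip.

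GH3.3, an auxin-induced gene whose enzyme links auxin to amino acids, had the largest whole FR change of the 22 in the tip. Its tip arrays read 2.24, 1.61 and 1.62 in control, 2.27, 1.94 and 1.41 under touch, 6.27, 6.72 and 6.60 under local FR and 6.83, 6.52 and 7.63 under whole FR, so that the gene went from near the low end of the signals in white light to a middle level in both far-red treatments. Its base arrays read 2.66, 2.05 and 5.22 in control, 1.45, 1.82 and 2.31 under touch, 2.62, 2.96 and 4.16 under local FR and 2.41, 1.86 and 2.05 under whole FR, highest in replicate 3 of control and replicate 3 of local FR. Without control replicate 3 the gene no longer met the base threshold. GH3.3 rose by 4.65 in the tip under local FR relative to touch (SE 0.53, limma adjusted p = 1.52e-05). The base difference was 1.38 (SE 0.53, limma adjusted p = 0.184), the 1 positive base value among the 22 genes. Measured against control, the base stood at -1.44 under touch, -0.06 under local FR and -1.20 under whole FR, with no test.

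AT2G12462 was already at a middle level in the white-light tip and read 5.95, 5.86 and 6.22 in control, 6.35, 6.09 and 6.08 under touch, 8.09, 8.44 and 8.21 under local FR and 8.92, 8.74 and 8.68 under whole FR, with no far-red array overlapping a white-light one. It rose by 2.07 in the tip (SE 0.24, limma adjusted p = 1.66e-05) and differed by -0.33 in the base (SE 0.24, adjusted p = 0.628). In the base it read 5.30, 5.38 and 6.57 in control, 5.81, 5.36 and 5.85 under touch, 5.20, 5.30 and 5.54 under local FR and 5.05, 4.51 and 4.50 under whole FR, where whole FR was lowest, and without control replicate 3 it no longer met the base threshold. AT5G27930 rose by 0.66 in the tip (SE 0.13, limma adjusted p = 0.00628), a call lost without touch replicate 2 (limma adjusted p = 0.0554).

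**Figure D2:**
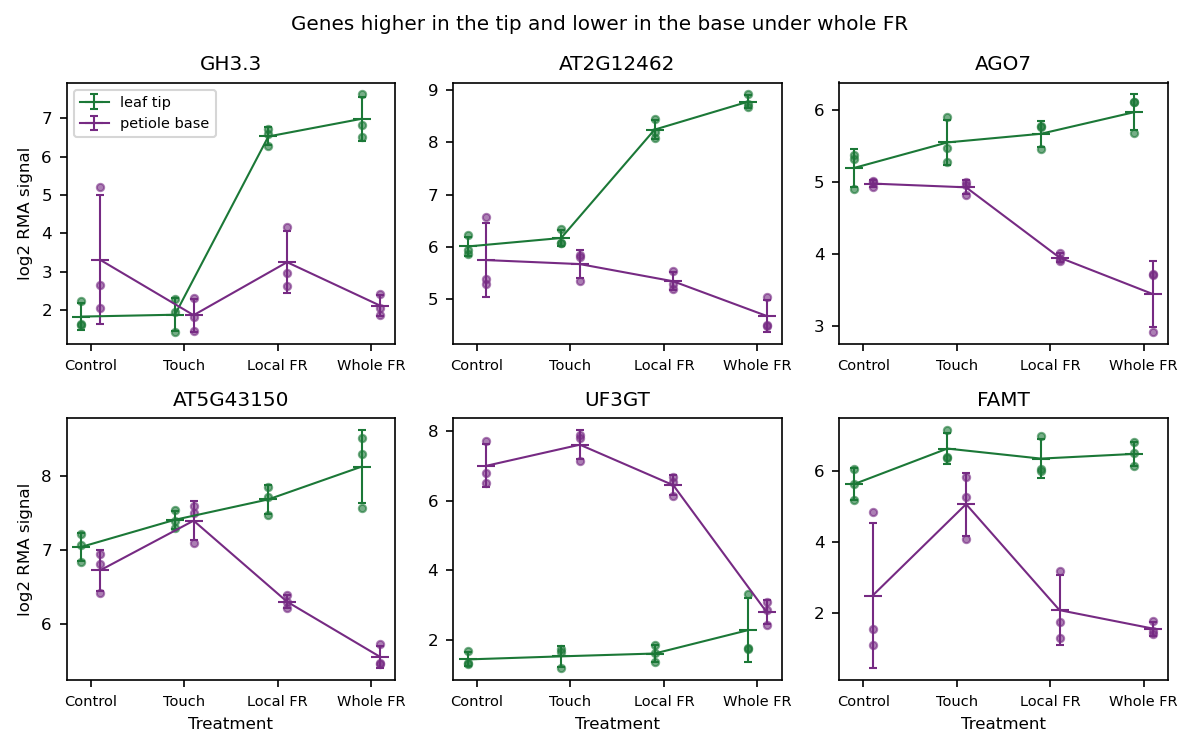
Log2 signal of 6 genes higher in the tip and lower in the base under whole FR, by treatment (control, touch, local FR, whole FR), in leaf tip (green) and petiole base (purple); points are arrays and the lines join group means ± SD (n = 3). Between touch and local FR, the means of GH3.3 and AT2G12462 lie further apart in the tip and those of AGO7, AT5G43150 and FAMT further apart in the base, while UF3GT stays low in the tip and is lower in the base under whole FR.

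AGO7, the Argonaute protein of the trans-acting small RNA pathway that acts on auxin response factors, passed the test in the base and not in the tip. Its base signal was 5.01, 5.00 and 4.93 in control, 4.96, 4.82 and 5.01 under touch, 3.91, 4.02 and 3.93 under local FR and 3.71, 2.92 and 3.72 under whole FR, with both far-red treatments below both white-light ones. In the tip it read 5.37, 5.32 and 4.90 in control, 5.90, 5.28 and 5.48 under touch, 5.78, 5.46 and 5.77 under local FR and 6.12, 5.69 and 6.11 under whole FR, where local FR and touch overlapped. It fell by 0.97 in the base under local FR relative to touch (SE 0.19, limma adjusted p = 0.00484), and the tip difference was 0.12 (SE 0.19, adjusted p = 0.924). AT5G43150 fell by 1.10 in the base (SE 0.20, limma adjusted p = 0.00207), where it read 6.94, 6.82 and 6.42 in control, 7.09, 7.60 and 7.50 under touch, 6.29, 6.39 and 6.21 under local FR and 5.72, 5.45 and 5.47 under whole FR. Relative to control, it stood at 0.675 under touch and -0.43 under local FR there, with no test.

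FAMT, a methyltransferase gene named for its action on farnesoic acid, was set apart by touch. Its base arrays read 1.55, 4.85 and 1.10 in control, 5.85, 5.28 and 4.11 under touch, 1.77, 3.21 and 1.30 under local FR and 1.42, 1.50 and 1.80 under whole FR, so that touch lay 2.58 above control on average, with 1 control array among the touch values. FAMT fell by 2.99 in the base under local FR relative to touch (SE 0.66, limma adjusted p = 0.0108), a call that was lost without local FR replicate 3 or touch replicate 1 (limma adjusted p up to 0.0756). The tip arrays read 5.65, 6.08 and 5.19 in control, 6.37, 7.16 and 6.40 under touch, 6.99, 6.08 and 6.02 under local FR and 6.82, 6.14 and 6.52 under whole FR, and the far-red and touch arrays overlapped. FAMT no longer met the thresholds without whole FR replicate 1 or control replicate 3 in the tip, or without control replicate 2 in the base. That base control array read 4.85, and the others read 1.55 and 1.10, beside 1.42, 1.50 and 1.80 under whole FR.

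UF3GT, a glycosyltransferase of anthocyanin synthesis, had its high signals at the base alone. Its base arrays read 7.70, 6.79 and 6.51 in control, 7.89, 7.81 and 7.13 under touch, 6.69, 6.53 and 6.12 under local FR and 3.10, 2.43 and 2.87 under whole FR, with the whole FR arrays far below all others. Its tip arrays read 1.68, 1.32 and 1.34 in control, 1.66, 1.19 and 1.75 under touch, 1.37, 1.86 and 1.62 under local FR and 1.74, 1.78 and 3.34 under whole FR, close to the lowest signals of the arrays, and without whole FR replicate 3 it no longer met the tip threshold. Local FR minus touch was -1.16 in the base (SE 0.34, limma adjusted p = 0.0633) and 0.08 in the tip (SE 0.34, adjusted p = 0.981). UGT72B3, a glycosyltransferase of the phenylpropanoid branch, had local FR minus touch of 0.74 in the tip (SE 0.22, limma adjusted p = 0.132) and -0.29 in the base (SE 0.22, adjusted p = 0.664).

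LTI30, a dehydrin of cold and drought response, stood at 1.71, 2.65 and 2.21 in control, 2.17, 2.30 and 2.40 under touch, 3.38, 3.59 and 2.88 under local FR and 3.76, 3.89 and 3.05 under whole FR in the tip. In the base it stood at 3.76, 4.04 and 2.85 in control, 4.66, 4.66 and 4.57 under touch, 4.71, 4.21 and 3.41 under local FR and 2.61, 2.07 and 2.79 under whole FR, where touch and local FR were both above control on average, by 1.07 and 0.56, and whole FR was below it. Its local FR minus touch differences were 0.99 at the tip and -0.52 at the base, with no test. IQD22, a calmodulin-binding protein of the IQ-domain family, was higher in the tip than in the base in every treatment. Its differences were 0.43 (SE 0.22, limma adjusted p = 0.525) and -0.33 (SE 0.22, adjusted p = 0.577).

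Across the 22 genes, local FR minus touch in the tip was positive in 21, with a median of 0.58, and 3 were called, all higher, against 0.754% of all probe sets. Leaving out LTI30 and AT2G44400, 19 of 20 were positive in the tip, with a median of 0.50, and the 3 calls stood. In the base 21 of 22 were negative, with a median of -0.60, and 7 were called, all lower, against 2.33%. Without LTI30 and AT2G44400, 19 of 20 were negative in the base, with a median of -0.60, and the 7 calls stood. The base calls not yet named were AT1G52000 at -1.14 (SE 0.25, limma adjusted p = 0.0109), AT2G22660 at -0.71 (SE 0.17, limma adjusted p = 0.0222), AT1G22930 at -0.70 (SE 0.14, limma adjusted p = 0.00566) and AT5G53420 at -0.64 (SE 0.17, limma adjusted p = 0.0399). Touch minus control in the base was 0.58, 0.36, 0.24 and 0.21 in these genes, in that order. Local FR minus control there was -0.56, -0.35, -0.46 and -0.44, both with no test. No gene of this direction was called in both tissues, and the share of all probe sets called in both was not counted. The local FR arrays lay wholly above the touch arrays in the tip in 12 of 22, against 7.18%, and wholly below them in the base in 12, against 10.5%. LTI30 and AT2G44400 were both among the 12 in the tip, and AT2G44400 was among the 12 in the base. AT1G52000 lost its base call without local FR replicate 3 or touch replicate 1 (limma adjusted p up to 0.0780), and AT2G22660 and AT5G53420 each lost theirs without any of 5 of the 6 base arrays (up to 0.0948 and 0.176). The count of 7 base calls fell to 4 without touch replicate 1 and to 3 without local FR replicate 3.

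The difference between the tissues was positive in 22 of 22, against 49.9% of all probe sets, from 0.51 to 3.27 with a median of 1.15. Without LTI30 and AT2G44400 it was positive in 20 of 20, with a median of 1.12. It was called in 7, all positive, against 0.783%. GH3.3 reached 3.27 (SE 0.75, limma adjusted p = 0.0269), AT2G12462 2.40 (SE 0.34, limma adjusted p = 0.000341) and AT5G43150 1.38 (SE 0.28, limma adjusted p = 0.0106). AT4G16750, called in neither tissue alone, stood at 1.15 (SE 0.25, limma adjusted p = 0.0161), AGO7 at 1.09 (SE 0.27, limma adjusted p = 0.0437), AT2G22660 at 1.05 (SE 0.25, limma adjusted p = 0.0305) and AT5G27930 at 0.87 (SE 0.18, limma adjusted p = 0.0127). FAMT, at 2.70 (SE 0.93, limma adjusted p = 0.196), was not called. AT1G06000, AT1G08230, AT1G14890, AT1G76590, AT2G43620, AT3G47010, IQD22, UF3GT and UGT72B3 were called in none of the 3 comparisons. LTI30 and AT2G44400 are left out here, since they carry no test. The calls of GH3.3 and AT2G22660 were each lost without any 1 of 8 of the 12 arrays (limma adjusted p up to 0.0799 and 0.0901), that of AGO7 without any 1 of 10 (up to 0.132), and that of AT4G16750 without tip local FR replicate 2 or base touch replicate 1 (up to 0.0537). The count of 7 fell to 4 without touch replicate 2 in the tip, or without touch replicate 2 or 3 in the base.

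**Figure D3:**
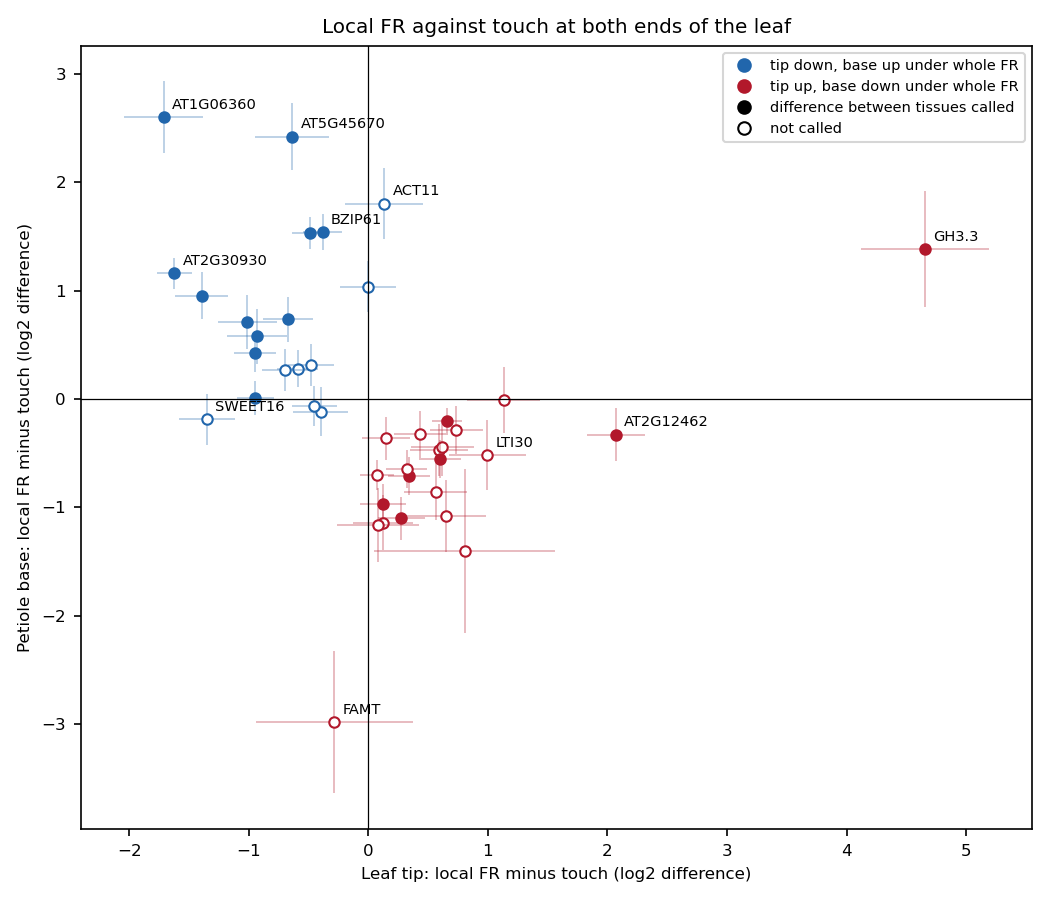
Local FR minus touch in the leaf tip (x axis, log2 difference) and in the petiole base (y axis, log2 difference) for the 41 genes; each point is a gene with its SE on both axes, colours mark the direction under whole FR, and filled points are those whose difference between tissues was called. The genes lower in the tip under whole FR sit mainly at the upper left, with medians of -0.67 and 0.71. Those higher in the tip sit mainly at the lower right, with medians of 0.58 and -0.60 (0.50 and -0.60 without LTI30 and AT2G44400). GH3.3 stands alone at the far right.

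The local FR levels can also be placed between control and whole FR, which share the arrays of the choice and so are a description. In the tip, the local FR mean lay on the whole FR side of control in 19 of 19 genes and 21 of 22, and between control and whole FR in 17 and 20. In the base, which local FR left in white light, it lay on the whole FR side in 19 of 19 and 20 of 22, and between in 19 and 20. Its median distance from control was -0.82 in the tip and 0.53 in the base for the first direction, and 0.66 and -0.41 for the second. The touch mean lay on the whole FR side in the tip in 11 of 19 and 18 of 22, and in the base in 7 of 19 and 7 of 22. In the base, touch minus control ran from -2.17 in AT1G06360 to 2.58 in FAMT. Its median there was -0.13 in the first direction and 0.24 in the second, on the other side of control from local FR.

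The ends of the leaf were compared in the touch arrays, which carried no far-red enrichment, and were again treated as independent. Of the 19 genes, 9 differed between tip and base, 4 with more signal in the tip and 5 with more in the base. Of the 22 genes, 12 differed, 2 with more in the tip and 10 with more in the base, and without LTI30 and AT2G44400 the latter count was 8 of 20 genes. Over all probe sets 11.1% had more in the tip and 13.3% more in the base. Tip minus base was -6.08 for UF3GT (SE 0.34, limma adjusted p = 1.19e-11) and -2.47 for AT1G14890 (SE 0.24, limma adjusted p = 5.12e-08). LTI30 at -2.34 and AT2G44400 at -2.20 owe their place in the choice to their high touch signal in the base, so these values are given with no test. IQD22 was higher in the tip by 2.90 (SE 0.22, limma adjusted p = 1.01e-09) and AGO7 by 0.62 (SE 0.19, limma adjusted p = 0.0197). In the first direction AT1G50040 was higher in the tip by 1.31 (SE 0.22, limma adjusted p = 7.91e-05) and ACT11 was lower there, at -1.08 (SE 0.33, limma adjusted p = 0.0166). Without 1 of 6 touch arrays, the calls of ACT11 (any of 4 arrays, limma adjusted p up to 0.0934) and AGO7 (base replicate 2 or tip replicate 1, up to 0.135) were lost.

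The median of tip minus base over the 19 genes was -0.24 in control, -0.11 under touch, -1.37 under local FR and -2.54 under whole FR. Over the 22 genes it was -0.59, -0.37, 0.76 and 1.71, and the touch value was -0.20 without LTI30 and AT2G44400. The distance between control and whole FR here follows from the choice of genes. Under whole FR the base mean was the higher one in 19 of 19, and the tip mean in 21 of 22, UF3GT being the exception. Between touch and local FR the order of the end means turned over in 7 genes of each direction. Any change of sign was counted, so gaps near 0 are included. Under touch the gap was 0.055 in AT1G07135, 0.03 in AT5G19190 and -0.02 in AT3G47010, none of them called. The share of all probe sets with such a turn was not counted.

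**Figure D4:**
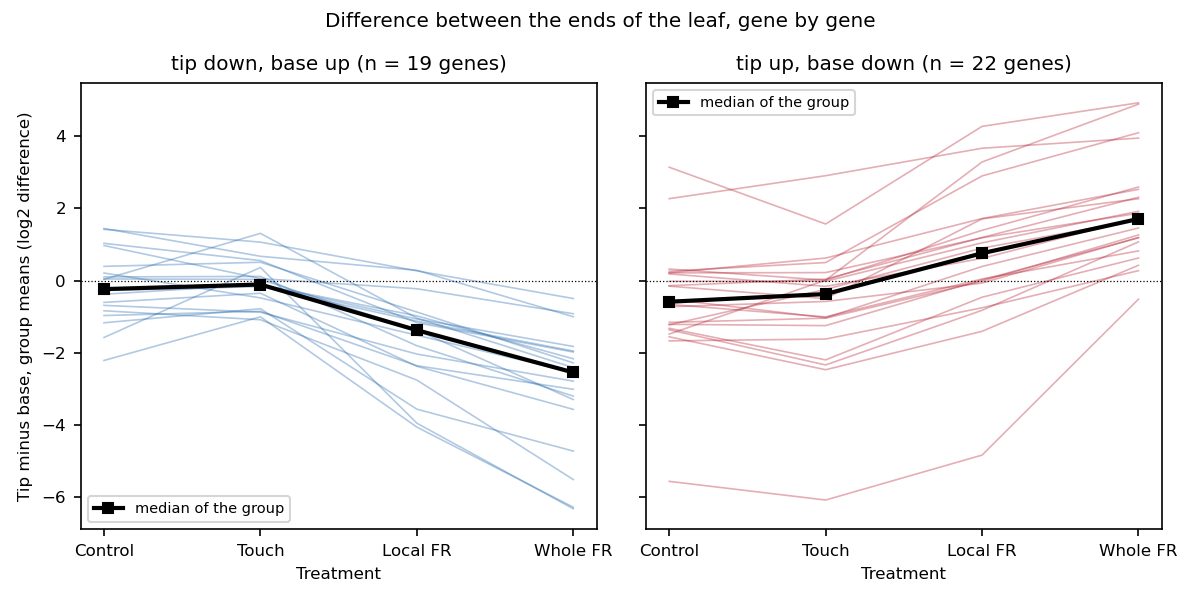
Tip minus base of the group means (y axis, log2 difference) in control, touch, local FR and whole FR, for the 19 genes lower in the tip (one panel) and the 22 higher in the tip (the other panel); thin lines are genes and the black line is the median. The medians run from -0.24 in control to -2.54 under whole FR in the first panel and from -0.59 to 1.71 in the second; control and whole FR chose the genes.

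Genes of related pathways were taken from lists of known loci, of which few had a named probe set. The lists were chosen with earlier results of these data known. Over all probe sets, 0.754% were called higher and 0.628% lower in the tip, 1.48% and 2.33% in the base, and 0.783% and 0.714% in the difference. Of the auxin list 8 of 24 were measured, and in the tip 4 rose under local FR relative to touch and none fell, with a median of 0.97 against 0.00 over all probe sets. They were GH3.3 above, the auxin response repressors IAA34 at 3.63 (SE 0.18, limma adjusted p = 1.21e-11) and IAA29 at 3.33 (SE 0.31, limma adjusted p = 8.41e-07), and the auxin synthesis gene YUC2 at 1.83 (SE 0.23, limma adjusted p = 4.62e-05). In the base only IAA29 of the list was called, higher by 1.49 (SE 0.31, limma adjusted p = 0.00722). Of the flavonoid and anthocyanin list, 9 of 30 genes were measured, by 11 probe sets: none was called in the tip, with a median of -0.15, and 3 fell in the base, with a median of -0.60 against 0.01 over all probe sets. They were those of AT4G14090 at -0.94 (SE 0.22, limma adjusted p = 0.0144), the malonyltransferase gene AT5MAT at -0.75 (SE 0.20, limma adjusted p = 0.0348) and 1 of the 3 that name AT1G03940, at -0.99 (SE 0.21, limma adjusted p = 0.00915). The others of AT1G03940 stood at 0.52 and 0.45 in the base without passing the test, so its probe sets disagree. UF3GT, at -1.16, had the same sign in the base without passing the test.

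Of the expansin and xyloglucan endotransglucosylase list, whose proteins loosen and rebuild the cell wall, 12 of 27 were measured: 2 rose in the tip, with a median of 0.12, and 5 rose and 1 fell in the base, with a median of 0.58. The difference between tissues was called in 3, in EXLA1 at -1.83 (SE 0.26, limma adjusted p = 0.000363), EXLA2 at -1.61 (SE 0.30, limma adjusted p = 0.00469) and EXPB3 at 1.67 (SE 0.28, limma adjusted p = 0.0019). Of the shade and phytochrome list 3 of 18 were measured, with medians of 1.0 in the tip and 0.64 in the base. FHL, which serves the nuclear import of phytochrome A, and HAT2, a homeodomain transcription factor, rose in the tip, by 1.91 (SE 0.27, limma adjusted p = 0.000209) and 1.0 (SE 0.19, limma adjusted p = 0.00467), and the transcription factor gene PIF7 fell, at -0.95 (SE 0.16, limma adjusted p = 0.00125). In the base HAT2 rose by 1.64 (SE 0.19, limma adjusted p = 2.07e-05), and FHL and PIF7 were not called. Of the cold and abscisic acid list 5 of 8 were measured, with medians of 0.49 in the tip and -0.50 in the base: the dehydrin gene COR47 rose in the tip by 1.42 (SE 0.15, limma adjusted p = 7.35e-06), and KIN2 fell in the base, at -0.89 (SE 0.21, limma adjusted p = 0.018). Of the gibberellin list 3 of 12 were measured, with medians of -0.03 and -0.51, and the receptor gene GID1A fell in the base, at -0.94 (SE 0.15, limma adjusted p = 0.000568). Of the touch and early stress list 3 of 8 were measured and none was called in local FR minus touch at either end, and neither were the measured genes of the cytokinin (2 of 10), jasmonate and defence (1 of 12) and circadian clock (1 of 9) lists.

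Marker genes of other cell types were set beside the results, as means of the log2 signal of the measured markers. The mesophyll chloroplast markers (4 of 18 measured) ranged from 8.61 to 8.74 in the base under touch and from 8.34 to 8.56 under local FR, so these groups did not overlap. In the base they ranged from 8.49 to 8.77 in control and from 7.92 to 8.15 under whole FR. The dividing cell markers (2 of 9, the kinases AUR1 and AUR2) ranged from 3.61 to 4.03 in the base under touch and from 4.11 to 4.98 under local FR, again without overlap, and from 3.82 to 5.75 in control and 4.16 to 4.51 under whole FR. The guard cell lineage markers (3 of 10) ranged from 3.16 to 3.23 and from 3.22 to 3.70 in those groups, which overlapped. In the tip, the phloem marker SWEET11 (1 of 6) ranged from 8.98 to 9.32 under touch and from 8.51 to 8.84 under local FR, and in the base it was near the low end, from 0.96 to 1.93 over all arrays. None of these markers was called in local FR minus touch at either end, and none of the epidermis or xylem and cambium markers was measured. The part of these cell types in the changes above was not tested.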

How the data were processed

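Biotin-labelled total RNA was hybridised to 24 Affymetrix arrays. The values are log2 RMA signals that the authors deposited, computed in Expression Console for core genes, per the labels. RMA corrects the background, equalises the distribution of signals between arrays and summarises probes, so a shift common to a whole array is lost. The release of the software and of its annotation is not given in the sources used here.

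Of 38408 probe sets in the file, the platform annotation gave 16746 a single gene and 758 several, and did not list 20904, which are unnamed here. The 17504 probe sets with a gene entered a linear model of all 24 arrays and 8 group means, followed by eBayes (limma 3.58.1, R 4.3.3). Tests were two-sided. A difference is one of log2 means, with its moderated standard error (SE). The fit was tested on simulated data.

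The genes and the pathway and marker lists were chosen with earlier results of these data known. The text names genes with a symbol of their own, the 10 of each direction with the largest smaller-side change, those called in local FR minus touch or in the difference between tissues, the 3 nearest each side of the threshold, and called genes of a list. No coordinates are given, since the build behind the array's design is not given in the sources used here. Promoter motifs were not analysed here. The labels do not say what a replicate number marks. Alternatives were the number as a block, leaving out each array, cyclic loess, a filter on dim probe sets, every probe set in the file, robust estimation with a variance trend, a fit of the compared groups alone, and other thresholds for the choice of genes.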

Additional observations from a re-analysis of the deposited data

Results flagged for a closer look

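The effect of local FR relative to touch differed between leaf tip and petiole base in 18 of the 41 genes, by a test of that difference itself in limma, with a Benjamini-Hochberg adjusted p under 0.05 over 17504 probe sets. Over all of them 0.783% were called above 0 and 0.714% below. All 18 differences had the sign that the gene's whole FR thresholds required. That sign does not show opposite changes at both ends: the base effect was 1.38 in GH3.3 and 0.01 in SFP2. Only AT1G06360, AT2G30930 and AT1G50040 were called at both ends.

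Below 0, so that the effect in the tip was the lower one, were 11 genes: AT1G06360 at -4.31, AT5G45670 at -3.05, AT2G30930 at -2.78, AT1G50040 at -2.35, AT1G22330 at -2.02 and BZIP61 at -1.92 on the log2 scale. The other 5 were AT5G16170 at -1.72, AT4G37240 at -1.51, AT5G19190 at -1.41, AT5G44020 at -1.38 and SFP2 at -0.95. Above 0 were 7 genes: GH3.3 at 3.27, AT2G12462 at 2.40, AT5G43150 at 1.38, AT4G16750 at 1.15, AGO7 at 1.09, AT2G22660 at 1.05 and AT5G27930 at 0.87. In GH3.3 and AT2G12462 the tip effect was larger in size than the base effect, and in AGO7 and AT5G43150 the base effect was the larger one.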

How the results depend on the processing

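No gene called in the report's 4 tests turned its direction under any alternative tried. Under every alternative, 7 of 10 tip calls, 9 of 16 base calls, 12 of 18 calls of the difference between tissues and 14 of 21 calls of tip against base under touch were kept. LTI30 and AT2G44400 are among these 14. Their choice rested on a high touch signal in the base, so nothing is read from their calls. The number of the 41 genes called ranged from 8 to 12 in the tip, 11 to 17 in the base, 13 to 22 in the difference and 16 to 22 under touch. Without 1 array, the counts for the 22 genes higher in the tip ranged from 3 to 6 in the base and from 4 to 7 in the difference, against 7 in both. In an alternative chosen after seeing the data, without the 2 genes that reached the minimum level only through touch or local FR groups, 10, 16, 18 and 19 of 39 were called.

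With thresholds of 0.5 the choice held 119 genes (53 and 66), and with 1.0 it held 14 (9 and 5). Without 1 array it held 36 to 51 (17 to 25 and 18 to 26).

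The labels do not say what a number marks, and not every same-numbered pair correlated above 0.1, so the numbers were not taken to pair the arrays, although all 12 correlations were positive. Deviations of same-numbered arrays correlated at 0.028, 0.066 and 0.053 in the tip, 0.009, 0.098 and 0.191 in the base, 0.016, 0.069 and 0.1 between the touch ends, and 0.103, 0.046 and 0.129 between the local FR ends. As a hint from the data, 6 of 6, 4 of 6, 5 of 6 and 6 of 6 arrays correlated best with their own number. With the replicate number as a block, 12, 17, 22 and 21 of the 41 genes were called, against 10, 16, 18 and 21. Of the 22, 12 in the difference were among the 19 genes lower in the tip and 10 among those higher there, against 11 and 7.

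Over all probe sets, 242 were called in the tip, 667 in the base, 262 in the difference and 4281 under touch. Without 1 array the counts ran from 136 to 222, 321 to 748, 169 to 291 and 3644 to 3872. With only the groups compared, the tip count was 118 and the base count 400. With all probe sets of the file the counts were 418, 1058, 444 and 8000, over 38408 tested.

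Reversals met only uncalled values near 0. Leaving out 1 array, tip against base under touch ran from -0.0538 to 0.214 in AT1G07135, -0.29 to 0.23 in AT3G47010, -0.0717 to 0.176 in AT4G16750, -0.046 to 0.181 in AT5G19190, -0.14 to 0.11 in AT5G43150 and -0.19 to 0.24 in GH3.3. Local FR minus touch in the tip ran from -0.0372 to 0.407 in ACT11, -0.0175 to 0.294 in AGO7, -0.11 to 0.35 in AT1G52000, -0.26 to 0.14 in AT3G06070 and -0.0888 to 0.205 in UF3GT. In the base it ran from -0.11 to 0.10 in AT1G06000, -0.285 to 0.0478 in AT1G07135, -0.147 to 0.0565 in AT1G11410 and -0.0853 to 0.101 in SFP2. Cyclic loess gave 0.0186 for AT3G47010 under touch and -0.0523 for SFP2 in the base. The causes were not tested. With 3 arrays a group, and some group means near the low end of the signals, among them means of GH3.3, UF3GT, AT1G50040 and FAMT, small differences could not be resolved.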

Other observations

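EXPB3, a beta-expansin gene that did not meet the thresholds for whole FR, changed in opposite directions at the leaf's ends in local FR minus touch. It rose by 0.81 in the tip (SE 0.20, limma adjusted p = 0.0387) and fell by 0.86 in the base (SE 0.20, limma adjusted p = 0.0142). The expansin-like genes EXLA1 and EXLA2 rose in the base by 1.59 (SE 0.19, limma adjusted p = 2.83e-05) and 2.02 (SE 0.21, limma adjusted p = 7.83e-06), and in the tip they stood at -0.25 and 0.41 without passing the test. EXPB3, EXLA1 and EXLA2 were singled out after their values were seen.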
